A study of Mus musculus with 2 samples.

Results

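The miR-15/16 genes of the newborn mouse thymus are described here, together with Mir195a and Mir497, which carry the same seed. The members are 6 of the 1973 miRNA genes in the count tables, chosen by name: Mir15a, Mir16-1, Mir15b, Mir16-2, Mir195a and Mir497b. The first 5 were read on their own strand. Mir497b was read on the opposite strand, because Mir497 lies there, and its values are those of Mir497. Whole thymus, both lobes, was taken on postnatal day 0 from 2 pups of the strain B6NCrl, and 1 small RNA library was made from each. Replicate 1 was pup 2 and replicate 2 was pup 3 of the same pregnancy, with no treatment named in the labels and sex not collected. Both libraries form 1 group, so there is no contrast between conditions, and the 2 libraries may differ by pup, dissection, library preparation or depth, which cannot be told apart. A single donor identifier is attached to both pups in the labels. Exact binomial p-values between the libraries measure only counting error. Those of the negative binomial test also include a spread estimated from the same 2 libraries.

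A miRNA guides the Argonaute protein to messenger RNAs that pair with its seed, bases 2 to 8 from the 5′ end, and lowers their translation and stability. The miR-15/16 family is known for restraining the cell cycle and survival through targets such as the cyclin genes Ccnd1 and Ccne1 and the survival gene Bcl2. In mice, loss of the Mir15a and Mir16-1 locus lets B cells expand, and the matching human locus is often deleted in chronic lymphocytic leukemia. miR-195a is known in the mouse heart for limiting the division of muscle cells after birth.

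The genes lie in 3 pairs (coordinates of GRCm38, equal to mm10). Mir15a (ENSMUSG00000093007.1, chromosome 14, 61632027 to 61632110, minus strand) and Mir16-1 (ENSMUSG00000092995.1, 61631880 to 61631972) are 54 bases apart within the noncoding gene Dleu2. Mir15a overlaps no exon of the 15 annotated Dleu2 transcripts, and Mir16-1 overlaps an exon of 1 of them. Mir15b (ENSMUSG00000065580.1, chromosome 3, 69009772 to 69009835, plus strand) and Mir16-2 (ENSMUSG00000065606.1, 69009902 to 69009996) are 66 bases apart in an intron of Smc4, a condensin subunit gene. Mir195a (ENSMUSG00000065411.2, chromosome 11, 70235042 to 70235135, plus strand) overlaps no other annotated gene. It lies 241 bases from Mir497 (70234717 to 70234800, plus strand), and Mir497b (ENSMUSG00000070109.2, 70234692 to 70234816, minus strand) spans the whole of Mir497 on the other strand.

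The mature 5p sequences show what the genes share. They are given from RefSeq (GRCm38.p6), with the seed in capitals. RefSeq held mature sequences for all 6 members.
miR-15a-5p: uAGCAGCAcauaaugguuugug
miR-15b-5p: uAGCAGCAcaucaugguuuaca
miR-16-5p: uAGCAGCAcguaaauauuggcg
miR-195a-5p: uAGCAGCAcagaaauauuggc
miR-497a-5p: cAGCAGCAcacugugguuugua
miR-322-5p: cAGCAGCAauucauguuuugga
The 5 member sequences are identical from position 2 to position 9, counted from 1 at the 5′ end. Beyond that they differ in how many bases they share. miR-15a-5p and miR-15b-5p match at 18 of 22 positions and differ by A12C, G20A, U21C and G22A (miR-15a-5p first). miR-16-5p and miR-195a-5p match at 19 of 21 positions and differ by G10A and U11G (miR-16-5p first). miR-497a-5p matches miR-15a-5p at 17 of 22 positions, miR-15b-5p at 16 and miR-16-5p at 11.

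miR-16-5p is encoded at both Mir16-1 and Mir16-2. The 2 hairpins are shown because they set which reads could be counted, with the longest stretch they share in capitals.
Mir16-1: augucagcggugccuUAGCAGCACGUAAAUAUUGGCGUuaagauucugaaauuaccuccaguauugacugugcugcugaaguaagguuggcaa
Mir16-2: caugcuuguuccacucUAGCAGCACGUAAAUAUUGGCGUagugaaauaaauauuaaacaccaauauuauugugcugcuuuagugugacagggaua
The shared stretch is 23 bases long, 1 more than the 22 of miR-16-5p. A read that lies within it matches both loci, and reads that mapped to several places were tallied apart from the gene counts. The other arms, miR-16-1-3p and miR-16-2-3p, share at most 11 bases with any other RefSeq miRNA hairpin. Against the same hairpins, no 5p sequence of Mir15a, Mir15b or Mir497 shares more than 11 bases, and miR-195a-5p shares 16 with Mir195b. The rest of the genome, and hairpins missing from RefSeq such as that of Mir15a, were not searched. The counts of Mir16-1 and Mir16-2 thus omit an unknown number of miR-16-5p reads, and the tables do not say from which arm the counted reads came.

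The tables held 3202488 counts over miRNA genes on both strands in replicate 1 and 1504777 in replicate 2, of 10642220 and 4892171 reads. Multimapping reads made up 56.3% and 57.5%. Levels are in counts per 1000000 counts on both strands (CPM), since Mir497 was read from a different column than the other genes. A count of 0 allows a level of up to 0.937 CPM in replicate 1 and 1.99 CPM in replicate 2 (3 counts). Intervals and these limits cover counting error only. Of the miRNAs that mark the labelled tissue, all 5 of the T cell and lymphocyte list and all 7 of the epithelial list had counts in both libraries. Every gene of the endothelial, smooth muscle and mesenchyme, erythroid and myeloid lists did too, so presence alone does not mark the tissue.

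Mir15a, Mir16-1 and Mir15b were abundant and close in level. Mir15a had 45901 counts in replicate 1 and 24439 in replicate 2, or 14333 and 16241 CPM. Mir16-1 had 46183 and 23564 counts, or 14421 and 15660 CPM. These 2 genes were higher in replicate 2, whereas Mir15b, with 50029 and 20994 counts or 15622 and 13952 CPM, was higher in replicate 1. Their means were 15287 ± 1349 CPM for Mir15a, 15040 ± 876 for Mir16-1 and 14787 ± 1181 for Mir15b (SD, n = 2). The 3 means differed by less than the spread between libraries, and their order was not the same in both. They held ranks 15, 17 and 18 among the 295 genes that reached 10 counts in each library, ranked on their own strand except Mir497b.

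Mir16-2 was the next in level. It had 8526 and 4174 counts, or 2662 and 2774 CPM, with a mean of 2718 ± 78.9 (rank 60). The gap to Mir15b exceeded the spread between libraries many times over. Mir16-1 over Mir16-2 was 5.42 in replicate 1 (exact 95% interval 5.29 to 5.54) and 5.65 in replicate 2 (5.46 to 5.84), so Mir16-1 took 84.7% ± 0.379 of the counts of this pair of loci. Because reads within the shared 23 bases are missing from both genes, this ratio compares the counted reads and not the output of the loci. Among the 14 pairs of tested genes with an identical mature sequence, the share of the leading locus had a median of 76.2%, and the Mir16 share was the fifth highest. Mir16-1 was also the second most abundant of the 36 tested genes whose mature sequence is found at another locus, after Mir181a-1 at 31776 and 30878 CPM. The median of these 36 genes was 109 CPM, against 262 CPM for the 234 tested genes with no such copy in RefSeq.

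Mir195a and Mir497 were far lower. Mir195a had 1003 and 468 counts, or 313 and 311 CPM, with a mean of 312 ± 1.54 (rank 137). Mir497, read opposite to Mir497b, had 836 and 379 counts, or 261 and 252 CPM, with a mean of 256 ± 6.49 (rank 141). Mir195a stood above Mir497 in both libraries, by 1.20 times in replicate 1 (exact 95% interval 1.09 to 1.32) and 1.23 times in replicate 2 (1.08 to 1.42). Together this pair held 1.18% ± 0.0437 of the counts of the 6 genes, against 62.6% ± 3.15 for the chromosome 14 pair and 36.2% ± 3.11 for the chromosome 3 pair. The chromosome 14 pair over the chromosome 11 pair gave a ratio of 53.4 ± 4.67.

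**Figure D1:**
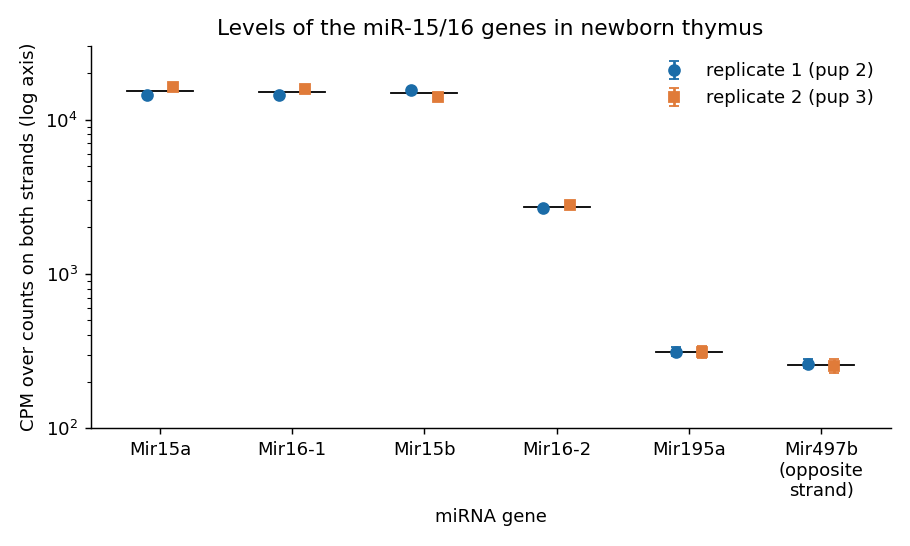
Level of each gene in CPM (log axis) in replicate 1 (circles) and replicate 2 (squares), with 95% Wilson intervals and the mean of both as a line. Mir15a, Mir16-1 and Mir15b lie together between 13952 and 16241 CPM, Mir16-2 at 2718, and Mir195a and Mir497 (opposite strand of Mir497b) at 312 and 256.

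The reads of Mir497 came from 1 strand. On the strand of Mir497b itself there were 2 counts in replicate 1 and 0 in replicate 2, against 836 and 379 on the strand of Mir497. The Mir497 hairpin is printed with miR-497a-5p in capitals.
Mir497: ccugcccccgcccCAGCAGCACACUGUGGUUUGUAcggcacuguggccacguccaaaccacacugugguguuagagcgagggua
miR-497b: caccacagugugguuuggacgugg
All 24 bases of miR-497b pair with this hairpin as its exact reverse complement, and miR-497b overlaps miR-497a-3p by 17 bases. miR-497b does not carry the seed. The other 5 genes had 0 counts on the opposite strand in both libraries, as did 272 of the 304 genes with at least 10 counts over both strands in each library. Mir497b was 1 of 10 among those 304 with more counts on the opposite strand than on its own.

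The 6 genes took 4.76% of the counts on both strands in replicate 1 (95% Wilson interval 4.74 to 4.78) and 4.92% in replicate 2 (4.88 to 4.95), a mean of 4.84% ± 0.111. Of 1738 mature sequences in RefSeq, 11 carry this seed, 6 of them in the genes above. The 5 others belong to Mir322, Mir195b, Mir6342, Mir6353 and Mir6419. Mir322, a gene of the X chromosome whose human counterpart is called miR-424, had 44434 and 18947 counts, or 13875 and 12591 CPM. This put it below Mir15a, Mir16-1 and Mir15b in both libraries. Mir195b, Mir6342, Mir6353 and Mir6419 had 0 counts in both libraries, so 7 of the 11 loci supplied all counts of these genes. The 6 genes made up 78.5% ± 1.54 of the counts of the 11 loci and Mir322 21.5% ± 1.54. Genes with the seed took 6.15% of all counts in replicate 1 and 6.18% in replicate 2. All these shares are of counted reads and not of the output of the loci. They omit miR-16-5p reads that matched both Mir16 loci. They may also include reads of arms without the seed, since the arm is not given. Mir503, which shares only bases 2 to 7 and lies beside Mir322, had 364 and 292 CPM, close to Mir195a.

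**Figure D2:**
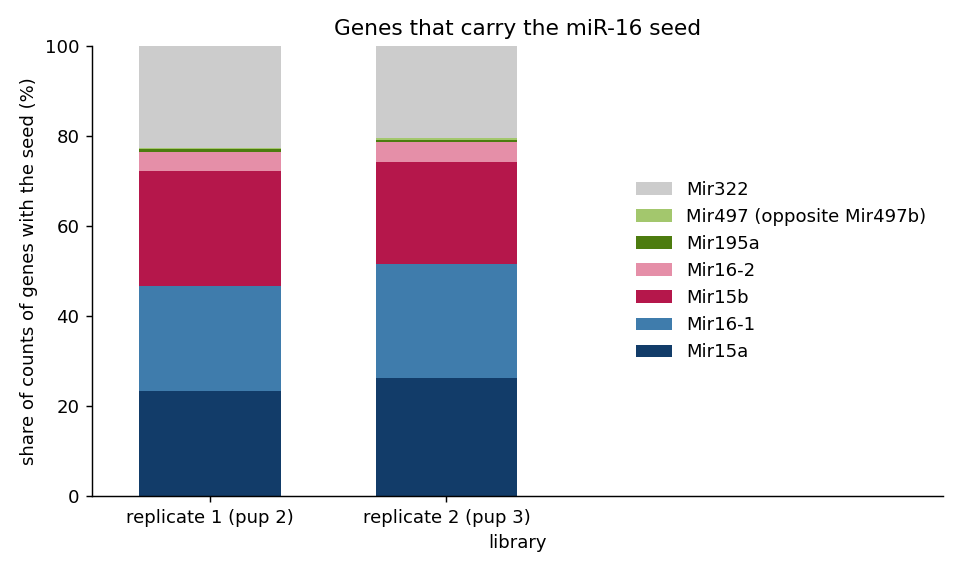
Share of each gene in the counts of all loci that carry the seed (%, stacked bars from 0 to 100) in replicate 1 and replicate 2. Mir15a, Mir16-1 and Mir15b fill most of each bar, Mir322 takes 22.6% and 20.4%, and Mir195a and Mir497 form a thin band.

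Within the pairs, the counts were even at 2 loci and uneven at the third. Mir15a over Mir16-1 was 0.994 in replicate 1 (exact 95% interval 0.981 to 1.01) and 1.04 in replicate 2 (1.02 to 1.06). Mir15b over Mir16-2 was 5.87 (5.73 to 6.0) and 5.03 (4.87 to 5.20). The tables held 62 pairs of consecutive tested miRNA genes on the same strand within 1000 bases, and in these the higher count exceeded the lower by a median of 4.69 times. Mir15a and Mir16-1, with a geometric mean of 1.02 over both libraries, were the most even of the 62. Mir195a and Mir497, at 1.22, were the sixth, and Mir15b and Mir16-2, at 5.43, the 34th. Of the 62 pairs, 15 were within 2-fold and 22 differed by more than 10-fold. No test was run on these ratios. Counted reads depend on shared sequence, so the evenness of Mir15a and Mir16-1 is one of counts, and the uncounted miR-16-5p reads would change it. Other pairs of the 62 also hold genes whose mature sequence is found at another locus, so the median and the ranks are those of counts too.

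**Figure D3:**
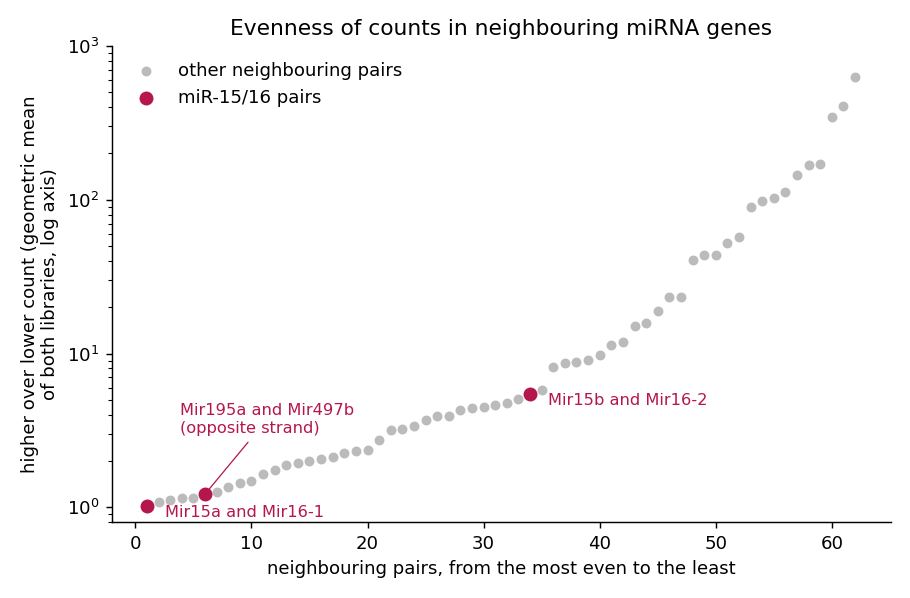
Higher over lower count in each of 62 pairs of neighbouring miRNA genes (geometric mean of both libraries, log axis), ordered from the most even to the least. The Mir15a and Mir16-1 pair stands first at 1.02, Mir195a and Mir497b (opposite strand) sixth at 1.22, and Mir15b and Mir16-2 34th at 5.43.

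Between the littermates, the chromosome 14 genes and Mir15b went in opposite directions. Ratios of replicate 2 over replicate 1 were scaled by TMM and tested by an exact binomial test with Benjamini-Hochberg adjustment over all 295 genes. Mir15a was higher in replicate 2, with a log2 ratio of 0.11 (95% interval 0.09 to 0.13, adjusted exact binomial p = 1.2e-20), as was Mir16-1, with 0.05 (0.02 to 0.07, adjusted exact binomial p = 0.00012). Mir15b was lower in replicate 2, with a log2 ratio of -0.23 (-0.26 to -0.21, adjusted exact binomial p = 2.1e-87). Mir16-2 (-0.01, -0.07 to 0.04), Mir195a (-0.08, -0.24 to 0.08) and Mir497 (-0.12, -0.30 to 0.05) did not pass.

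Thus 3 of the 6 genes passed, 2 higher and 1 lower, where 43.4% of all 295 genes passed, 20% higher and 23.4% lower. The share that passed was near that of all genes. The test counts any difference beyond counting error, and the libraries differed by more than that, with a biological coefficient of variation of 0.154 over all genes. A negative binomial test in edgeR that includes this spread passed 0 of the 6, with 0 at an unadjusted p under 0.05, against 1 of 295 genes (15 unadjusted). It sets 1 library against 1, and its spread was estimated from the same 2 libraries. The difference under test is thus part of that spread. Few calls follow from this setup and do not show that genes are alike between the libraries. Scaled to total counts, 72 genes were higher and 52 lower, in place of 59 and 69, and the calls of the 3 members stayed.

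In size, the median absolute log2 ratio was 0.10 for the 6 genes and 0.21 for all 295. The largest of the 6, that of Mir15b, was at or above the value of 54.2% of all tested genes. These comparisons were not matched for level. The 295 include genes with as few as 10 counts in a library, whose ratios carry more counting error than those of the abundant members. Mir15a over Mir15b, which does not depend on scaling, was 0.917 in replicate 1 (exact 95% interval 0.906 to 0.929) and 1.16 in replicate 2 (1.14 to 1.19). The order of these counts thus turned between the libraries, by intervals that cover counting error only. The ratio of the chromosome 14 pair to the chromosome 3 pair was 1.57 and 1.91. Within the pairs, Mir15b over Mir16-2 differed between the libraries by -0.22 on the log2 scale and Mir15a over Mir16-1 by 0.06, against a median absolute value of 0.25 over the 62 neighbouring pairs. Mir322, on the X chromosome, had a log2 ratio of -0.21 (-0.24 to -0.19, adjusted exact binomial p = 7.2e-64), and Mir503 of -0.39 (-0.55 to -0.23, adjusted exact binomial p = 3.8e-06). In a whole organ, fewer cells of a type and less RNA per cell cannot be told apart.

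Markers of other cells also differed between the libraries. The smooth muscle and mesenchyme list summed to 38992 CPM in replicate 1 and 51888 in replicate 2 (4 of 4 genes counted, led by Mir143), and the endothelial gene Mir126a had 23947 and 31954 CPM. The T cell and lymphocyte list, led by Mir181a-1, summed to 48983 CPM in replicate 1 and 44881 in replicate 2. Its genes did not move alike: Mir181b-2 fell the most (9593 and 6608 CPM), and Mir150 alone was higher in replicate 2 (1582 and 1998 CPM). The epithelial list, led by Mir205, gave 33850 and 34811 CPM in the same order. In it, Mir200c (8879 and 7032 CPM) and Mir203 (3111 and 2919 CPM) were lower in replicate 2 and the other genes higher. The erythroid list, led by Mir451a, gave 197 and 144 CPM, and the myeloid list, led by Mir223, 803 and 686. All these sums are of counted reads. The mature sequences of Mir181a-1 and Mir181b-2 are also found at another locus. Reads of these genes that mapped to several places are missing from their counts. The striated muscle and heart list summed to 409 and 566 CPM, with counts for 3 of its 5 genes. Mir1a-2 was not matched, and Mir133a-1 had 0 counts. Since reads that mapped to several places were not counted, a 0 need not mean absence. Mir206, a skeletal muscle miRNA and the most abundant gene of this list, had 380 and 379 CPM. Mir208b, which lies in a cardiac myosin gene, had 18.7 CPM in replicate 1 and 158 in replicate 2 (log2 ratio 3.01), and Mir499 had 9.99 and 29.2 CPM. Mir208b was the gene that passed the negative binomial test (edgeR, adjusted p = 3.2e-12). Mir150, Mir181b-2, Mir200c, Mir203, Mir208b and Mir499 are named here after their values were seen. The part of these cells in the differences of Mir15a, Mir16-1 and Mir15b was not tested.

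**Figure D4:**
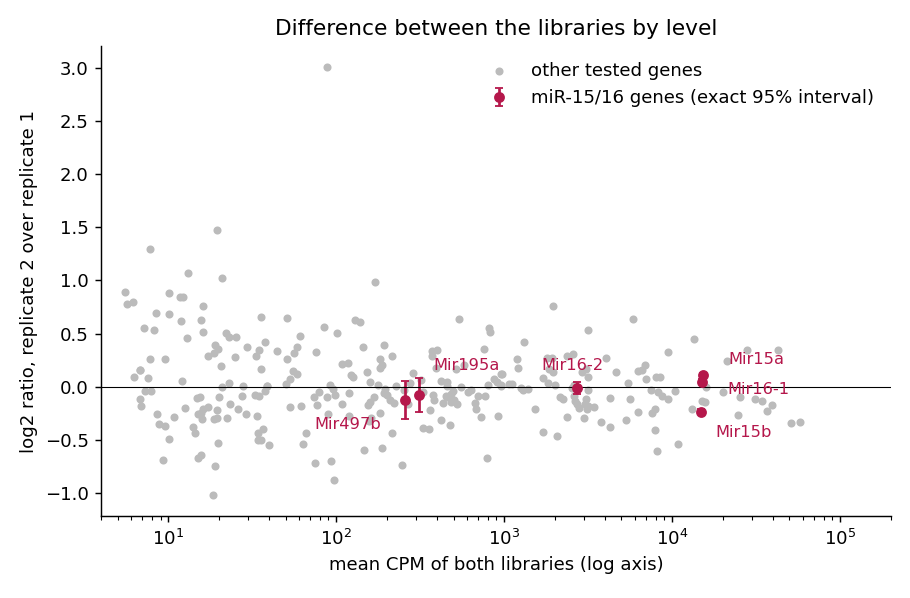
Log2 ratio of replicate 2 over replicate 1 against mean CPM (log axis) for the 295 tested genes, with the 6 members in colour and their exact 95% intervals. The members lie between -0.23 and 0.11, Mir15a and Mir16-1 just above 0 and Mir15b below it.

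In level over both libraries, Mir15a and Mir16-1 were each other's nearest gene, at a distance of 0.05 in log2 CPM over the 2 libraries. The gene nearest to Mir15b was Mir335 (15436 and 14732 CPM, distance 0.08). Mir16-2 was nearest to Mir151 (2545 and 2700 CPM, distance 0.08), Mir195a to Mir221 (326 and 330 CPM, distance 0.10) and Mir497 to Mir132 (249 and 256 CPM, distance 0.07). With 2 libraries, likeness of this kind is one of level alone.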

How the data were processed

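Per the text files deposited with the tables, reads were mapped to mm10 and the genes are those of GENCODE M4. For the aligner and the counter, names were not given in the sources used here. Every library has its own table, in which the authors deposited unnormalized read counts for every miRNA gene. In every gene the first count column equals the sum of the gene-strand and opposite-strand columns. Unmapped, multimapping and unassigned reads stayed out of library sizes and tests.

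Of 1973 identifiers, 1894 matched GENCODE M21, which gave symbols and coordinates and may differ from M4. CPM here divides by the counts on both strands of all genes. Genes that reached 10 counts in each library were tested, each on its own strand except Mir497b. Scaling was TMM in edgeR 4.0.16 (R 4.3.3). The two-sided exact binomial test (scipy 1.17.1, Python 3.11.15) used a threshold of 0.05. It was tried on data simulated with counting error alone, without the further spread found between these libraries. With 1 group, no quasi-likelihood contrast exists. The common dispersion came from an intercept alone. Shares have Wilson intervals. The text names the members, all genes with their seed, the nearest gene in level, hosts and the leading gene of each marker list. Further genes of those lists were named after their values were seen. The members and lists were chosen with earlier results of these data known. The neighbouring pairs and the genes with identical mature sequences were chosen for comparison after the tables were seen. The counts of the libraries differed beyond sampling noise (chi-square test, statistic 27694, 696 degrees of freedom) and were used as 2 replicates.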

Additional observations from a re-analysis of the deposited data

How the results depend on the processing

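Of the log2 ratios between libraries, those of Mir15a, Mir16-1 and Mir15b kept their direction and their call with the counts of both strands, with a minimum of 1 count in either or 100 in both libraries, and with DESeq2 1.42.0 size factors, total counts and leaving out the most abundant gene, Mirlet7g. They ranged from 0.09 to 0.18 for Mir15a, 0.03 to 0.11 for Mir16-1 and -0.25 to -0.17 for Mir15b. Under the negative binomial test no member passed (0 in place of 3) and 1 gene in place of 128 did. The spread in that test came from the same 2 libraries, so its few calls do not check the others. The log2 ratio of Mir16-2, not called in any setting, turned to 0.0208 with 100 counts in both libraries. It was 0.0186 with DESeq2 size factors and 0.0542 with total counts. In these settings its counts were the same, and only the scaling between the libraries differed. The coefficient of variation was 0.180 with 1 count in either library and 0.130 with 100 in both.

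The share of the 6 genes was 5.14% without the most abundant gene, 3.06% without Mir16-1 and Mir16-2, and 5.66% of the gene-strand total, an alternative chosen after seeing the data. Over single libraries it ran from 4.76% to 4.92%, Mir15a over Mir16-1 from 0.994 to 1.04, Mir15b over Mir16-2 from 5.03 to 5.87, and the chromosome 14 pair over the chromosome 3 pair from 1.57 to 1.91. Over all reads in the tables, the levels were 4654 CPM for Mir15a and 78.0 CPM for Mir497, since most reads were not counted over genes. No paired analysis was possible because there is 1 group. Depth limits Mir195a and Mir497 the most: their log2 ratios had intervals of -0.24 to 0.08 and -0.30 to 0.05.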
